A study of Danio rerio with 2 samples.

Results

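The respiratory chain of the inner mitochondrial membrane was described here through 107 of the 27931 genes measured in single cells of zebrafish embryos. The members were taken by symbol alone: every gene whose name begins with mt-nd, mt-co, mt-cyb, mt-atp, nduf, uqcr, atp5, sdha, sdhb, sdhc or sdhd, or with cox followed by a digit from 4 to 8. Of these, 13 lie on the mitochondrial genome and 94 in the nucleus. The nuclear members comprise 82 subunits, 10 assembly factors of complexes I and II (the ndufaf and sdhaf genes) and 2 inhibitors of ATP synthase (atp5if1a and atp5if1b). The rule itself uses names and no measured value.

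Complexes I to IV pass electrons from reduced carriers to oxygen and, with the exception of complex II, pump protons across the inner membrane, and ATP synthase, complex V, uses the resulting gradient to make ATP. The subunits are the products of both genomes: a small core of hydrophobic subunits is transcribed and translated inside the mitochondrion from polycistronic precursors, while all of complex II and most other subunits are encoded in the nucleus, made in the cytosol and imported. Early vascular cells rely strongly on glycolysis, while immature erythroid cells use mitochondria both for ATP and for haem synthesis.

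The cells came from untreated Danio rerio embryos of the line Tg(-2.3 etv2:GFP)zf372, grown at 28.5 °C per the labels, in which a fragment of etv2 regulatory sequence drives GFP. The transgene is thus a record of etv2 enhancer activity in early vascular and blood precursors, and GFP protein can outlast that activity. Sorted GFP+ cells of pooled embryos, 48 from 15-18 somites and 48 from 20 somites, were captured with the Fluidigm C1 system. The paper's methods differ from the labels: they describe a cooler incubation for part of the time at stages this early. They also give a narrower somite range for the earlier stage. Each stage is 1 sample with its own day and chip, so stage, day and chip cannot be told apart, no difference has a replicate check, and every SD given here is the spread over cells.

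The cells fall into the 8 populations that the authors deposited and named: 1 erythrocytes (2 cells at 15-18 somites and 3 at 20 somites), 2 epithelial (6 and 4), 3 tailbud (14 and 14), 4 endothelial progenitor cells or EPC (8 and 6), 5 venous (4 and 4), 6 arterial (10 and 3), 7 a further endothelial population called EC2 (2 and 5) and 8 macrophages (2 and 9). Per the labels all cells are vascular endothelial cells, but the endothelial markers cdh5, tie1 and ecscr had mean levels, as log2(TPM + 1), of 4.83 to 7.85 in populations 4 to 7 and at most 1.74 elsewhere. The erythrocyte, epithelial and macrophage markers were at 11.5, 12.2 and 8.52 in the populations of those names. The tailbud markers msgn1, tbx16, cdx4 and myf5 reached only 1.25 in population 3, which is therefore called population 3 below. Values are TPM, transcripts per 1000000 transcripts of the cell, a unit that corrects for transcript length but keeps no depth. In place of depth, between 1845 and 7337 genes per cell were detected, that is, above 1 TPM, with a median of 5090.5 at 15-18 somites and 5388.5 at 20 somites.

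Both genomes contributed at the level of a few percent of the transcripts of a typical cell. The 13 mitochondrially encoded mRNAs made up a median of 3.14% of TPM per cell, and the 94 nuclear members together a median of 1.91%. Over the 96 cells the mitochondrial share ranged from 0.212% to 86.8% and the nuclear share from 0.0183% to 3.92%. Without the 2 cells of highest mitochondrial share the ranges were 0.212% to 16.7% and 0.751% to 3.92%. The summed mitochondrial share therefore had a wider range over cells than the summed nuclear share, with and without these cells. This concerns the sums and not single genes.

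Among the populations the mitochondrial share was highest in population 3. It averaged 15.3% ± 25.9 (SD over 14 cells) with a median of 5.32% at 15-18 somites, and 6.20% ± 5.32 with a median of 4.02% at 20 somites. The means and medians of that population differ because a few of its cells lay far above the rest. All 6 cells above 10% belonged to population 3, as did 13 of the 21 cells above 5%.

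In erythrocytes the mitochondrial share was 3.01% and 3.10% in the 2 cells at 15-18 somites and between 4.22% and 4.60% in the 3 cells at 20 somites. Macrophages had 3.22% and 3.83% at the earlier stage and 2.71% to 6.10%, with a median of 4.84%, at the later one. The endothelial cells had a median of 3.01% (range 1.11% to 5.73%, 24 cells) at 15-18 somites and of 2.62% (1.24% to 7.81%, 18 cells) at 20 somites. Blood cells of both kinds thus lay within the endothelial range at each stage, and their means stood above the endothelial means at both.

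Within the endothelium, EPC had the highest mean mitochondrial share, 3.66% ± 1.03 at 15-18 somites and 4.19% ± 2.63 at 20 somites. At each stage the lead of EPC over the next population was smaller than the SD over the EPC cells. Venous cells had 2.88% ± 1.18 and 2.46% ± 0.954. Arterial cells had 2.30% ± 0.955 and 2.50% ± 0.244, and EC2 cells 2.33% ± 0.521 and 2.49% ± 0.260. The ranges of the cells of these populations overlapped at both stages, and the order of venous, arterial and EC2 cells rests on differences smaller than the spread of their cells. Epithelial cells, at 2.76% ± 2.65 and 3.07% ± 1.20, were in the same range.

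**Figure D1:**
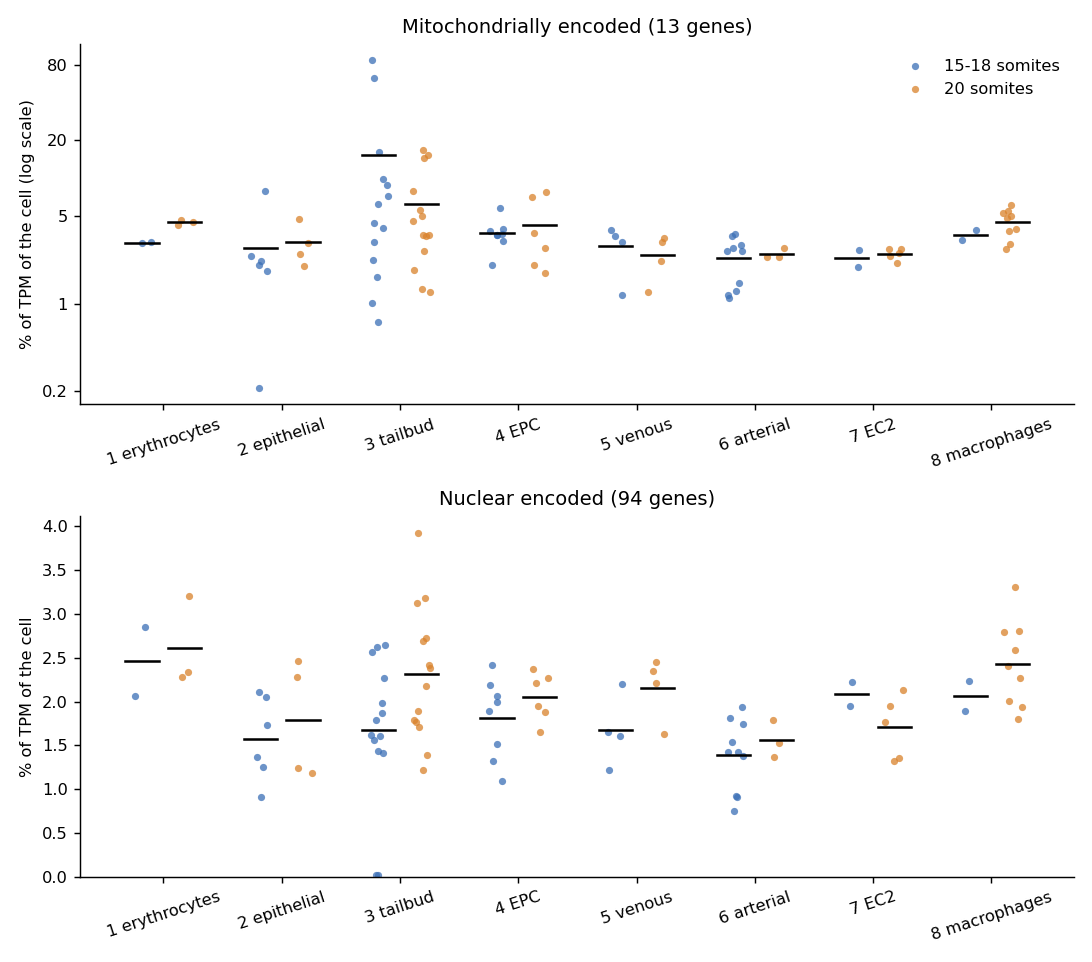
Share of TPM per cell from the 13 mitochondrially encoded genes (top, log scale) and the 94 nuclear genes (bottom, linear scale) in the 8 populations; each point is 1 cell, colours are the stages and black bars are the means over cells. Population 3 holds the highest mitochondrial shares, up to 86.8%, and the same 2 cells lie near 0 in the lower panel.

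The nuclear share ordered the populations differently. Erythrocytes had the highest mean, 2.46% at 15-18 somites (the 2 cells at 2.07% and 2.85%) and 2.61% at 20 somites (2.28%, 2.34% and 3.20%). Macrophages followed with 2.06% ± 0.237 and 2.43% ± 0.489. Arterial cells had the lowest mean, 1.38% ± 0.404 and 1.56% ± 0.209, below each of the other 7 populations at both stages. With both stages weighted equally the means were 2.53% in erythrocytes, 2.25% in macrophages, 1.99% in population 3, 1.93% in EPC, 1.91% in venous cells, 1.90% in EC2 cells, 1.68% in epithelial cells and 1.47% in arterial cells. The values of population 3, EPC, venous and EC2 cells lie closer together than the SD over the cells of any of them. At each stage the lower erythrocytes and macrophages lay inside the range of the endothelial cells (0.751% to 2.41% at 15-18 somites and 1.32% to 2.45% at 20 somites), and the highest cell of either stage outside population 3 was an erythrocyte or a macrophage.

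The surplus in erythrocytes lay mainly in ATP synthase and complex I. The nuclear subunits of complex V made up 0.943% of TPM in erythrocytes and 0.744% in macrophages, compared with 0.568% in the endothelial populations taken with equal weight. The 2 inhibitors of ATP synthase added 0.104%, 0.0983% and 0.0399%. The subunits of complex I made up 0.687%, 0.575% and 0.505%, and those of complex III 0.271%, 0.250% and 0.187%. Nuclear subunits of complex IV were closest together in relative terms, at 0.472%, 0.503% and 0.451%. Those of complex II, at 0.0237%, 0.0463% and 0.0339%, were below the endothelial mean in erythrocytes and above it in macrophages. In arterial cells the subunits of complexes III, IV and V (0.111%, 0.355% and 0.433%) were below the endothelial mean, while those of complex II, at 0.0498% against 0.0339%, were above it. The arterial complex II value rests largely on sdhb in the 3 cells at 20 somites, at 0, 695 and 981 TPM. The mean of sdhb in the 10 earlier arterial cells was 180 TPM, and sdha was detected in none of the 3 later ones.

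A pair of population 3 cells from the 15-18 somite stage stood apart from all others. In one, 86.8% of TPM was mitochondrial and only 0.0183% nuclear respiratory chain mRNA, and in the other 62.6% and 0.0206%. The next highest mitochondrial share of any cell was 16.7%. Set against the non-mitochondrial transcripts alone, the nuclear members of these cells were still at 0.138% and 0.0552%, while the lowest value of any other cell was 0.762%. The first cell had 1845 genes and 10 nuclear members detected and the other 3697 genes and 15 nuclear members, whereas other cells had 32 to 81 of the 94. All 13 mitochondrial mRNAs were detected in both. Cytosolic ribosomal protein mRNA was also low in them, at 0.458% and 0.101% of TPM compared with a median of 16.4% over all cells. The erythrocyte, macrophage and muscle (myog, tnnc2) markers were at 0 in both. Summed TPM in the first and the other cell was 35.8 and 77.4 for epithelial markers and 3.95 and 0 for endothelial markers. It was 1.38 and 0 for tailbud markers and 0 and 29.0 for heart markers (myl7, cmlc1). The gene number of the first cell was below the lowest of the cells outside the pair, 2060, and that of the other was above it. The part of gene number in these shares was not tested, and values of population 3 are given with and without the pair. Without the pair, its mitochondrial share was 5.43% ± 4.50 (12 cells) at 15-18 somites, and its nuclear share 1.95% ± 0.466 in place of 1.67% ± 0.821.

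At the other end, an epithelial cell of the 15-18 somite stage had only 0.212% mitochondrial mRNA, with 11 of the 13 mRNAs detected. Its nuclear share of 2.11% and its 4519 detected genes were within the range of the other cells.

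Across cells the shares of the genomes were only weakly related. Spearman's rho between them was 0.22 over 96 cells and 0.29 over the 94 cells without the pair above 50%. At 15-18 somites it was -0.06 over 48 cells and at 20 somites 0.44 over 48 cells, and both stages share the limits that shares of 1 total cannot vary freely and that cells of 1 chip are not replicates. Within populations of at least 7 cells rho ran from -0.74 in the 8 venous cells to 0.41 in the 13 arterial cells. The mitochondrial share had little relation to the number of genes detected over the 96 cells together (rho -0.04). It was -0.20 at 15-18 somites and 0.17 at 20 somites, and within populations it ran from -0.19 in epithelial cells to 0.48 in EPC. Between single genes, the median rho over the 2485 pairs of the 71 nuclear members detected in at least 48 cells was 0.15, that over the 923 pairs of a nuclear with a mitochondrial gene 0.03, and that over the 78 mitochondrial pairs 0.49. These coefficients are descriptions and carry no test.

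**Figure D2:**
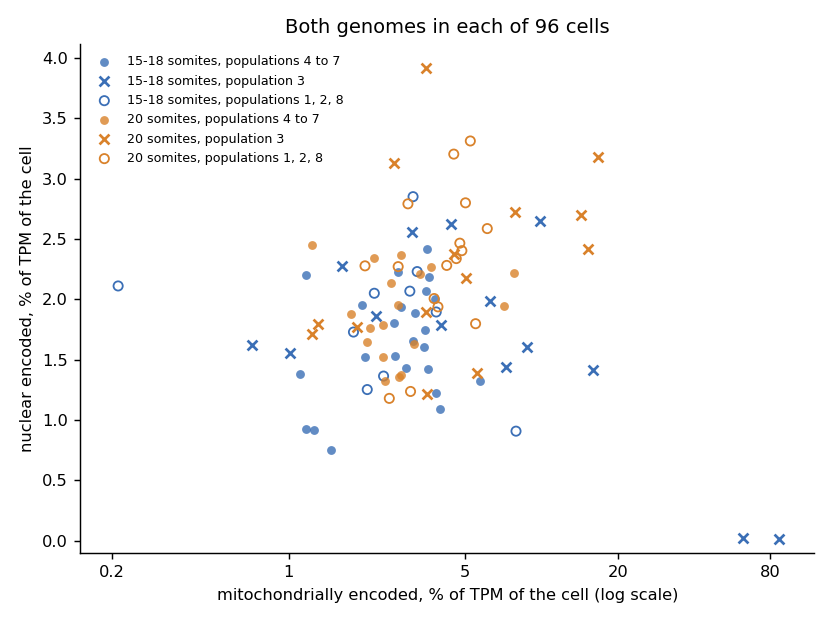
Nuclear share against mitochondrial share of TPM (log scale) in each of the 96 cells; colour marks the stage, and filled points, crosses and open points mark populations 4 to 7, population 3 and populations 1, 2 and 8. The cells form 1 broad cloud with little slope, apart from 2 crosses at 62.6% and 86.8% mitochondrial with a nuclear share near 0, and 1 open point at 0.212% mitochondrial.

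The mitochondrial mRNA was dominated by the mitochondrially encoded subunits of complex IV, cytochrome c oxidase. Mean TPM over the 96 cells was 16944 for mt-co2, 9944 for mt-co3 and 7465 for mt-co1, and these 3 mRNAs made up 64.5% ± 8.35 (SD over cells) of the mitochondrial total. Next came mt-cyb, the cytochrome b of complex III, at 6163, and the ATP synthase subunits mt-atp8 and mt-atp6 at 3603 and 3431. The 7 mRNAs of complex I subunits, mt-nd1 to mt-nd6 and mt-nd4l, had means between 498 (mt-nd5) and 1398 (mt-nd2) and together made up 12.5% ± 4.45. Because TPM is per length, these are relative numbers of transcripts of 13 mRNAs from the same genome, and their means nevertheless differed widely.

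Several of these mRNAs moved as pairs. As shares of the mitochondrial total, mt-atp6 and mt-atp8 had a Spearman's rho of 0.91 over 96 cells, mt-nd4 and mt-nd4l 0.86 and mt-nd5 and mt-nd6 0.66, the 3 highest of the 78 pairs. The remaining pairs were at most at 0.40, with a median over all pairs of -0.03, and the lowest value, -0.64, was that of mt-co2 with mt-atp8. The ratio of mt-atp8 to mt-atp6 had a median of 1.04 and lay within 2-fold in 95 of 96 cells. That of mt-nd4l to mt-nd4 had a median of 1.02 and lay within 2-fold in 79 of the 91 cells with both. In vertebrates the members of each of these pairs are read from 1 bicistronic mRNA with overlapping reading frames, so the quantification can split shared reads between them, and the pairs are not independent measurements. The genes mt-nd5 and mt-nd6 lie next to each other on opposite strands, and the strand setting of the counting is not given in the sources used here, so that reads from them cannot be told apart with certainty.

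In the cells with the most mitochondrial mRNA, mt-co2 and mt-co3 were its leading species, as in the median over all cells. In the cell at 86.8%, mt-co2 made up 35.8% and mt-cyb 13.3% of the mitochondrial total, and in the cell at 62.6% they made up 26.1% and 12.9%, compared with medians of 31.3% and 9.97% over all cells. A departure was seen for mt-nd5 and mt-nd6. These were at 110 and 118 TPM in the cell at 62.6%, or 0.0175% and 0.0189% of its mitochondrial total, but at 10236 and 18642 TPM, or 1.18% and 2.15%, in the cell at 86.8%. The mRNAs mt-nd4 and mt-nd4l went the other way, with 3.25% and 2.76% in the former and 0.528% and 0.250% in the latter.

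**Figure D3:**
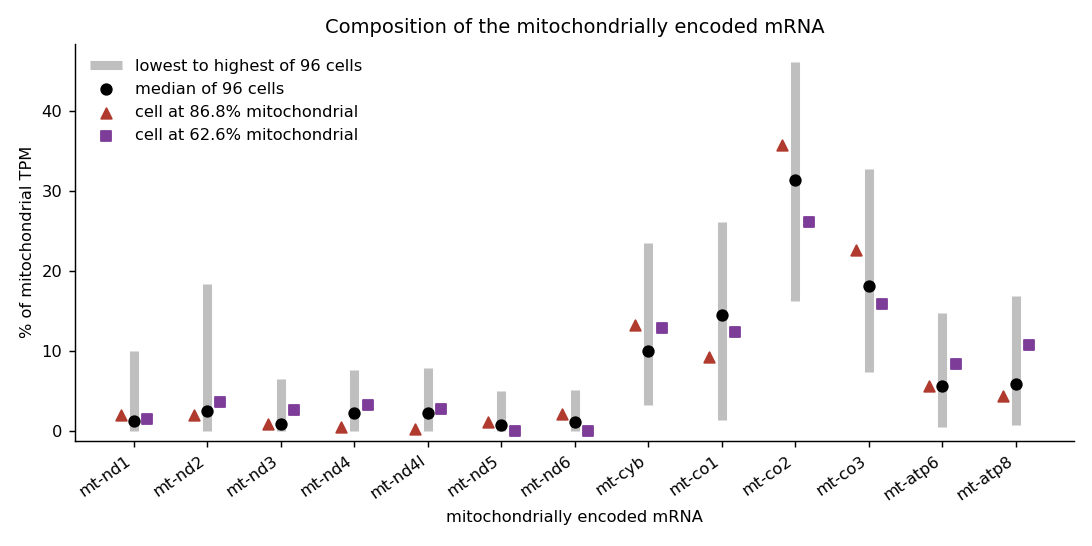
Share of each of the 13 mitochondrially encoded mRNAs in the mitochondrial TPM of a cell; grey bars span the lowest to the highest of the 96 cells, black points are medians, and triangles and squares are the cells at 86.8% and 62.6% mitochondrial. The cells with extreme totals have mt-co2, mt-co3 and mt-cyb inside the span of the other cells, and differ from each other in mt-nd4, mt-nd4l, mt-nd5 and mt-nd6.

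Of the 94 nuclear members, 71 were detected in at least 48 of the 96 cells and none in 0 cells. The most abundant was cox6b2 of complex IV, with a mean of 1121 TPM (91 cells). It was followed within that complex by cox6a1 at 767 (94 cells), cox5b at 757 (91 cells) and cox7a2 at 688 (83 cells). In ATP synthase the leading subunits were atp5mc3b of the membrane rotor ring at 726 TPM, the catalytic beta subunit atp5f1b at 690, the stalk subunit atp5po at 670 and atp5mf at 564. Complex III was led by the hinge protein uqcrh at 662 TPM, followed by uqcrb at 582, uqcrq at 319 and the core protein uqcrc1 at 176. Complex I was led by ndufb8 at 390 TPM, ndufb9 at 363, the acyl carrier protein ndufab1 at 303 and ndufa11 at 261. Complex II, which also belongs to the citric acid cycle, was the lowest, with sdhb at 153 TPM, sdhc at 101, the flavoprotein sdha at 35.3 and the membrane anchor sdhd at 31.2. Assembly factors had a median of 18.5 TPM, compared with 151 for subunits and inhibitors. Each of these subunit genes was at 0 in at least 1 cell.

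Of subunits with several copies in the genome, 1 copy usually carried nearly all of the mRNA. The gene cox6b2 made up 96.4% of cox6b TPM, cox7a2 99.6% of cox7a TPM, ndufa9 97.2% of ndufa9 TPM and ndufab1 82.0% of ndufab1 TPM. Second copies of cox6a1, cox5b and sdhd were each detected in 1 cell. Other families were shared, with uqcrc2 at 52.1% and uqcrc2a at 47.9%, atp5if1a at 54.5% and atp5if1b at 45.5%, and the 3 genes of the rotor ring subunit c at 59.6% (atp5mc3b), 27.9% (atp5mc1) and 12.5% (atp5mc3). Paralogs of similar sequence can share reads, so these splits are uncertain.

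The subunit e genes of ATP synthase differed in their split between populations. The copy atp5mea made up 44.3% of the pair in venous cells and 36.3% in EPC, but 4.45% in erythrocytes, 7.06% in macrophages and 10.5% in arterial cells. Its mean was 2.53 and 26.6 TPM in erythrocytes at the earlier and later stage and 74.9 and 109 TPM in endothelial cells. The other copy, atp5meb, was at 395 and 344 TPM in erythrocytes and was detected in all 5 of them.

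The regulatory subunit 4 of complex IV had a less common form, cox4i2, that was detected most often in arterial and EC2 cells. The common form, cox4i1, was detected in 87 of 96 cells, with a mean of 369 TPM. The form cox4i2, which in mammals is induced by low oxygen and expressed in lung and vessels, was detected in 19 cells, with a median of 201 TPM in those cells and a range of 1.11 to 1315. Arterial cells held it most often, in 8 of 13 cells (61.5%, exact 95% interval 31.6 to 86.1), then EC2 cells in 3 of 7 (42.9%, 9.90 to 81.6) and EPC in 3 of 14 (21.4%, 4.66 to 50.8). It was found in 1 of 8 venous cells, 2 of 28 cells of population 3, 1 of 10 epithelial cells and 1 of 11 macrophages, the last at 1.11 TPM. None of the 5 erythrocytes had it (exact 95% interval 0 to 52.2), and the looser limit of 3 cells of the total allows a share of up to 60%. Over the endothelial populations together the shares were 9 of 24 cells (37.5%, 18.8 to 59.4) at 15-18 somites and 6 of 18 (33.3%, 13.3 to 59.0) at 20 somites, compared with 4 of 54 other cells (7.41%, 2.06 to 17.9). The endothelial shares rest mainly on arterial cells, and venous cells, at 12.5%, were near epithelial cells, at 10%. These intervals cover the counting of cells only, and all 19 cells also had cox4i1. In arterial cells cox4i2 made up 28.1% of the TPM of the family. The 10 arterial cells at 15-18 somites had a median of 116 TPM, and of the 3 at 20 somites 1 had 87.1 TPM and 2 had none. The remaining form, cox4i1l, was detected in 2 cells, and ndufa4l2b, whose mammalian counterpart also responds to low oxygen, in 1 arterial cell and 1 macrophage.

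**Figure D4:**
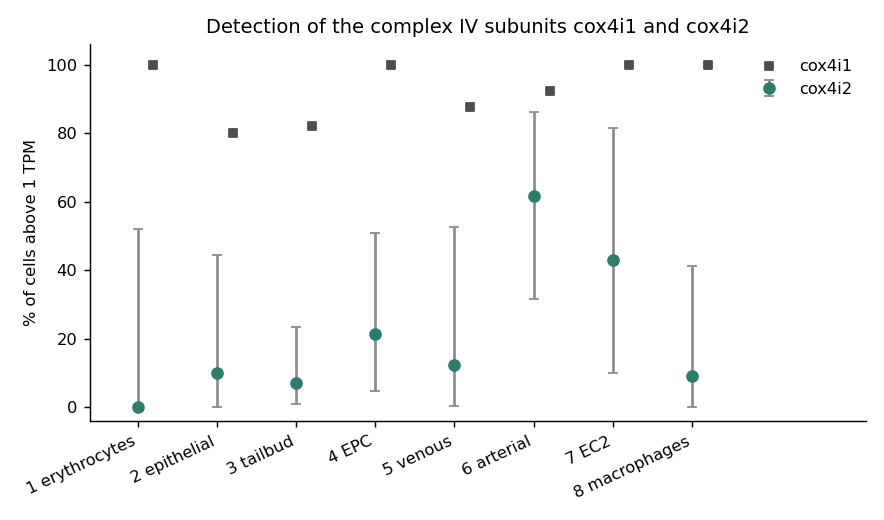
Share of the cells of each population with cox4i1 (squares) and cox4i2 (points) above 1 TPM; bars are exact 95% binomial intervals and cover the counting of cells only. The cox4i1 share is at least 80% in every population, while cox4i2 is at 61.5% for arterial and 42.9% for EC2 cells and does not exceed 21.4% in the other populations.

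The populations outside the endothelium were then compared with populations 4 to 7, gene by gene. A gene was counted as higher or lower where its mean log2(TPM + 1) differed by at least 1, that is 2-fold, among the 8439 genes above 1 TPM in at least 20% of cells. The 13 mitochondrial members and 80 of the 94 nuclear ones passed this filter, and the other 14 were too rarely detected. The endothelial cells are shared by all 4 comparisons, and the populations themselves were made by clustering these cells on their expression, so the counts are descriptions and not tests.

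In erythrocytes 58 of the 80 nuclear members were higher and 4 were lower, compared with 26.9% of all genes higher and 31.3% lower. Their median log2 difference was 1.68, and that of all genes -0.30. By count the rise ran through every complex, with 27 of 36 subunits higher in complex I, 3 of 4 in complex II, 6 of 7 in complex III, 5 of 10 in complex IV and 14 of 17 in complex V. In complex II the exception was its most abundant subunit, sdhb (-0.14), and the complex II share of TPM was below the endothelial mean. At each stage taken on its own, 43 of the 80 were higher at both, compared with 17.8% of all genes.

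The largest differences in erythrocytes were those of ndufa8 (log2 difference 4.10), an accessory subunit of complex I, the complex II anchor sdhd (3.66), the accessory subunit ndufs6 (3.43), ndufa5 (3.41) and the ATP synthase inhibitor atp5if1b (3.37). The gene ndufa8 was at 231 and 345 TPM in the 2 earlier erythrocytes and at 190 to 296 TPM in the 3 later ones. Endothelial cells had a median of 24 TPM (0 to 355, 16 of 24 cells detected) and 11.9 TPM (0 to 485, 12 of 18 cells). No erythrocyte lacked ndufa8 while a part of the endothelial cells did, and the ranges overlapped. The paralog atp5if1a, whose loss in the zebrafish mutant pinotage impairs haem synthesis, was at 262 and 720 TPM and at 642 to 892 TPM in erythrocytes, with an endothelial median of 150 TPM (0 to 708) and 177 TPM (0 to 681). The anchor sdhd was at 55.9 and 71.9 TPM and at 26.2 to 116 TPM in erythrocytes and was detected in 8 of 24 and 10 of 18 endothelial cells. The lower members were atp5mea (-2.53), ndufa9 (-1.28), the assembly factor ndufaf2 (-1.18) and ndufs8 (-1.04).

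Macrophages followed the same direction in fewer genes. There, 43 of the 80 nuclear members were higher and 4 lower, compared with 23.6% and 24.5% of all genes, with a median of 1.24 against -0.10. At both stages separately 27 were higher, compared with 13.4% of all genes. The largest differences were those of ndufb2 (3.96), atp5if1b (3.95), the complex I core subunit ndufs1 (3.52), ndufs5 (3.48) and sdha (3.36). The inhibitor atp5if1b was at 351 and 1425 TPM in the 2 earlier macrophages and at 356 to 837 TPM in the 9 later ones, and its endothelial medians were 107 TPM (0 to 699) and 95.8 TPM (0 to 1248). Every macrophage was above the endothelial median, although the ranges overlapped. The flavoprotein sdha was detected in 1 of 2 earlier macrophages, at 91.4 TPM, and in all 9 later ones, at 13.6 to 345 TPM. It was found in 9 of 24 and 6 of 18 endothelial cells, at no more than 100.5 TPM. The core subunit ndufs1 was at 115 and 187 TPM in the earlier macrophages and was detected in 6 of 9 later ones and in 2 of 24 and 8 of 18 endothelial cells. Unlike in erythrocytes, atp5if1a did not stand out in macrophages with the stages weighted equally (-0.14). The 2 earlier macrophages, at 3.27 and 54.3 TPM, count there as much as the 9 later ones, at 79.7 to 774 TPM. Among the lower members were ndufa9 (-2.21), atp5mea (-1.58) and the assembly factor sdhaf4 (-1.02).

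In blood cells the members differed more in how often they were detected than in their level where they were detected. Of the 80 nuclear members, 59 were detected in all 5 erythrocytes and 39 in all 11 macrophages, whereas 23.4% and 13.8% of all genes tested were. Such counts depend on the number of cells: 4 members were detected in all 42 endothelial cells, compared with 4.93% of all genes tested. The median member was detected in 100% of erythrocytes, 90.9% of macrophages and 76.2% of endothelial cells. For the median of all genes tested these were 60%, 54.5% and 50%. In the cells that had it, the median member was at 201 TPM in erythrocytes, 200 TPM in macrophages and 207 TPM in endothelial cells. With the log2 of the mean TPM of a population, a measure that high cells decide, 19 members were higher in erythrocytes, near the 19.7% of all genes, and 14 in macrophages, below the 21.2% of all genes. The median member was then still above that of all genes, at 0.51 against -0.68 in erythrocytes and 0.45 against -0.24 in macrophages. Erythrocytes and macrophages also had more genes detected, with medians of 5884 and 5918 per cell against 5356.5 in endothelial cells, and the part of this in the result was not tested.

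Among the mitochondrial mRNAs, those past 2-fold in blood cells were subunits of complex I, but not every subunit of that complex was past it. In erythrocytes mt-nd6 (2.53), mt-nd5 (2.50), mt-nd2 (2.09), mt-nd1 (1.70), mt-nd4l (1.41) and mt-nd3 (1.30) were higher by at least 1. The 3 mRNAs of complex IV differed by 0.39 to 0.58 and mt-cyb by 0.12. The complex I mRNA mt-nd4 (0.61) was below mt-atp8 (0.77) and mt-atp6 (0.64) of complex V. In macrophages mt-nd2 (1.86), mt-nd6 (1.76), mt-nd5 (1.63), mt-nd4l (1.53) and mt-nd1 (1.05) were higher, while mt-nd4 (0.95) and mt-nd3 (-0.13) were not past 2-fold. As given above, mt-nd4l and mt-nd4 are not independent measurements, and reads of mt-nd5 and mt-nd6 cannot be told apart with certainty. Thus 6 and 5 of 13 mitochondrial members were counted, beside 26.9% and 23.6% of all genes. With the log2 of the mean TPM the counts were 3 and 1, beside 19.7% and 21.2% of all genes, shares near or below the background.

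**Figure D5:**
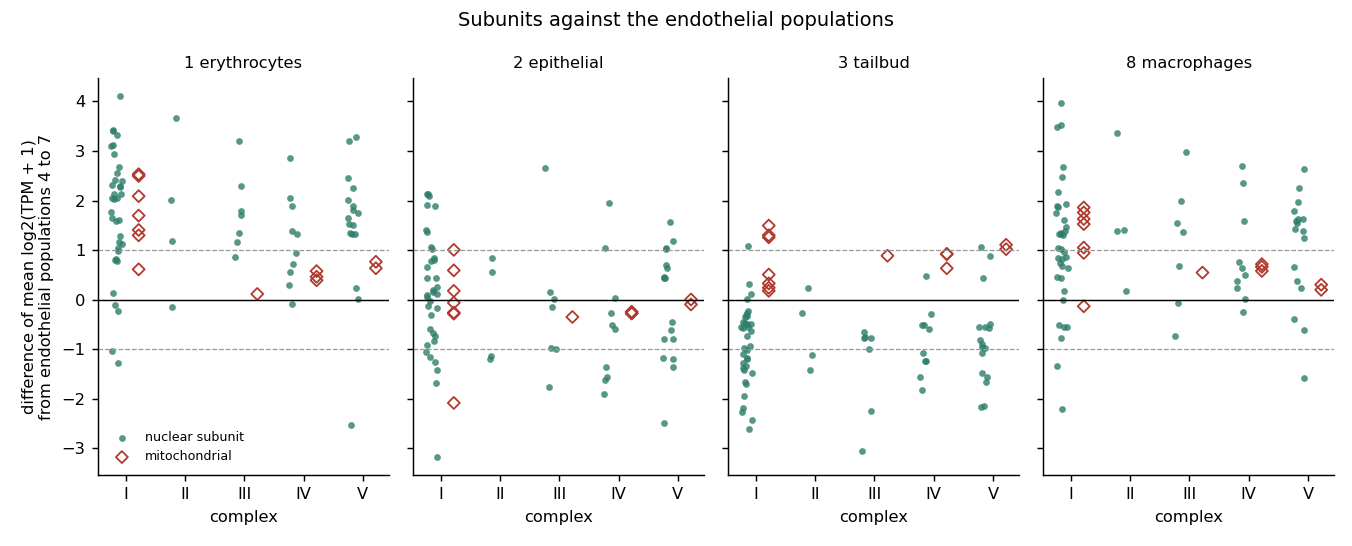
Difference of the mean log2(TPM + 1) from endothelial populations 4 to 7 for the nuclear subunits (points) and the mitochondrially encoded subunits (diamonds) that passed the filter, by complex, in populations 1, 2, 3 and 8; dashed lines mark a difference of 1. In erythrocytes and macrophages most points lie above 0 in each complex, in epithelial cells they scatter around 0, and in population 3 the points lie mostly below 0 (with the log2 of the mean TPM, the median of the 80 nuclear members turns to 0.28) and all diamonds above it.

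By mean log2(TPM + 1), population 3 showed the genomes on opposite sides of the endothelial level, but with the log2 of the mean TPM the nuclear median turned from -0.83 to 0.28. All 13 mitochondrial mRNAs were above the endothelial level, by 0.18 (mt-nd1) to 1.5 (mt-nd2), and 5 by at least 1: mt-nd2, mt-nd5 (1.30), mt-nd6 (1.26), mt-atp8 (1.11) and mt-atp6 (1.02). Over all genes only 1.64% were higher. Of the nuclear members 33 of 80 were lower and 2 higher, ndufb2 (1.09) and the ATP synthase subunit atp5md (1.06). This was close to the background of the population, in which 38.3% of all genes were lower and the median gene was at -0.71, which became -0.03 with the log2 of the mean TPM. At both stages separately 16 of the 80 were lower, compared with 23.8% of all genes. The lowest were the assembly factor ndufaf1 (-3.10), the Rieske protein uqcrfs1 of complex III (-3.04), ndufs7 (-2.62), ndufa9 (-2.43) and ndufb6 (-2.27). The protein uqcrfs1 had mRNA in 4 of 14 and 8 of 14 cells of population 3, at means of 31.8 and 101 TPM, against 21 of 24 and 15 of 18 endothelial cells, at 157 and 159 TPM.

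Population 3 also had fewer genes detected, with a median of 3960.5 per cell, and the part of this in the lower nuclear levels was not tested. With the log2 of the mean TPM, 2 nuclear members were lower and 9 higher, beside 21.1% and 19.4% of all genes, and all 13 mitochondrial mRNAs were higher. Without the pair of cells above 50% mitochondrial, 3 mitochondrial and 4 nuclear members were higher, and the median of the 13 mitochondrial mRNAs was 0.61 in place of 0.92. The share of all genes higher without the pair is not given, so these 2 counts have no background beside them.

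In epithelial cells the counts of nuclear members were near the background. Of the 80, 17 were higher and 19 lower, compared with 15% and 25.3% of all genes. Their median was -0.01, above that of all genes, -0.30. The complex III core protein uqcrc2a (2.66), the complex I subunits ndufv1 (2.13) and ndufv2 (2.09), and cox5aa of complex IV (1.96) were among the highest. Lowest were ndufaf1 (-3.36), ndufa8 (-3.17), atp5mc1 (-2.48), cox6c (-1.91) and uqcrfs1 (-1.76). The gene ndufa8, present in every erythrocyte, was at a mean of 5.72 TPM in epithelial cells at 15-18 somites and at 0 in all 4 at 20 somites. Among the mitochondrial mRNAs mt-nd5 was higher (1.01) and mt-nd3 lower (-2.08), the latter with a mean of 105 and 382 TPM at the earlier and later stage. With the log2 of the mean TPM the higher nuclear members numbered 5, beside 19.2% of all genes, and no mitochondrial member was counted.

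The stages were compared within each population and averaged over the 8. The nuclear share was higher at 20 somites in 7 of 8 populations, the exception being EC2 cells (2.09% and 1.71%), and rose on average from 1.84% to 2.08%. The mitochondrial share was higher at 20 somites in 6 of 8 populations, though its mean over populations went from 4.48% to 3.73%. By complex, the summed share of the nuclear subunits of complex I was higher at 20 somites in 7 of 8 populations (mean 0.491% and 0.587% of TPM), as was that of complex V (0.621% and 0.682%). Gene by gene, by mean log2(TPM + 1), 27 of 36 complex I subunits tested had a difference of any size above 0, with a median of 0.52. In complex V only 6 of 17 were above 0 and 11 were below 0, with a median of -0.025 and none past 2-fold. The median difference of all genes tested was -2.98e-05, and their share above 0 is not given. The decrease of the mitochondrial mean rested on the pair of population 3 cells above 50%, without which the mean difference was 0.483 percentage points in the other direction.

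Of the 80 nuclear members, 10 were higher at 20 somites and 4 lower, compared with 4.75% and 5.9% of all genes. The largest increases were those of ndufa11 (log2 difference 1.87, higher in 7 of 8 populations), ndufs4 (1.77, 6 of 8), the complex III to IV linking factor cox7a2l (1.58, 7 of 8), ndufa7 (1.45, 6 of 8) and ndufa9 (1.4, 6 of 8). Of the 36 complex I subunits tested, 6 were higher and 3 lower. The accessory subunit ndufa11 was at 0 and 36.7 TPM in the earlier macrophages and at 66.3 to 1330 TPM in the 9 later ones, while its endothelial mean was 259 TPM at the earlier and 250 TPM at the later stage. The gene cox7a2l was detected in 13 of 24 endothelial cells at a median of 28.4 TPM at 15-18 somites and in 16 of 18 at a median of 153 TPM at 20 somites. Among the decreases were those of cox6b1 (-1.91, higher in 1 of 8), ndufa4b (-1.64, 2 of 8) and the core subunit ndufv1 (-1.09, 2 of 8). The mRNA of cox6b1, the rarer form beside cox6b2, was at 121 and 676 TPM in the 2 earlier macrophages and at 0 in all 9 later ones. NDUFA4, the human counterpart of ndufa4b, is known as a partner of complex IV, although its name places it with complex I. None of the 13 mitochondrial mRNAs differed by 1 in either direction, and their differences lay between -0.53 (mt-nd1) and 0.61 (mt-nd6).

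Without regard to population, that is over all cells of a stage, 26 nuclear members were higher at 20 somites, compared with 5.63% of all genes. The populations had different shares of the cells at each stage, macrophages for example 2 cells at 15-18 and 9 at 20 somites. Within populations and without the pair above 50% mitochondrial, 7 members were lower in place of 4. The share of all genes lower without the pair is not given, so the 7 have no background beside them.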

How the data were processed

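The authors captured GFP+ cells on a Fluidigm C1 chip, prepared libraries from polyA RNA, quantified reads with Kallisto against Ensembl release 72 of Zv9 in AltAnalyze, and deposited TPM for each gene and cell. The sort gated on single and live cells. The Kallisto version, strand setting, read filters and any removal of doublets from the data are not given in the sources used here. The population of each cell, a deposited column of another kind (a group number), comes from the authors' iterative clustering. Symbols were assigned to 71.3% of the gene identifiers from a names table, in which 121 names met the rule and 107 were in the expression table. Where a symbol names several identifiers, the copy with the higher TPM is given unless stated. Groups came from the labels.

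Shares are sums of TPM over the members. Levels are means of log2(TPM + 1), with stages weighted equally and the 4 endothelial populations weighted equally. This scale understates changes of low genes. Detection means above 1 TPM. Intervals are exact Clopper-Pearson 95% intervals, and 0 cells allow up to 3 cells of the total. Calculations used Python 3.11.15 with pandas 2.3.3, numpy 2.4.6, scipy 1.17.1 and matplotlib 3.10.9, and were tested on simulated data. With 1 sample per stage, no p-value was computed. The depth of each cell is unknown.

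Named genes were all mitochondrial members, the 4 highest nuclear subunits of each complex, up to 5 past 2-fold in each direction per comparison, paralogs, and up to 3 genes per list and direction. Values of 1 member that the rule names are not reported here. Other genes named were chosen after their values were seen. The members and lists were chosen with earlier results of these data known. Alternatives were the denominator, pseudocount, filter, averaging, rescaling outside the mitochondrial genes and cells left out. The deposited marker, filtered log2 and raw tables were not used.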

Additional observations from a re-analysis of the deposited data

Results flagged for a closer look

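A pair of differences from the endothelial populations had opposite signs at the stages. The mitochondrial share of TPM of epithelial cells minus that of the endothelial populations was -0.0339 percentage points at 15-18 somites and 0.160 at 20 somites. The nuclear share of population 3 minus that of the endothelial populations was -0.0662 percentage points at 15-18 somites and 0.444 at 20 somites. Neither change between the stages was tested, since each stage is 1 sample, and the earlier value of population 3 includes the pair of cells above 50% mitochondrial.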

How the results depend on the processing

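Of 312 alternative values computed for 40 results, 278 stayed within a set limit, 33 moved and 1 reversed. The limit was the SD over cells for shares, the SD over populations for mean stage differences and 1.5 times for counts. Direction was compared only for the mean stage differences of the shares. A median that changes sign, as that of the nuclear members in population 3, is thus not counted as reversed. The reversed value was the mean stage difference of the mitochondrial share, -0.754 percentage points, which was 0.483 without the pair of cells above 50% mitochondrial. Without mt-co2 the mitochondrial share was 2.58% in erythrocytes, 1.53% in arterial cells, 1.71% in EC2 cells and 2.72% in macrophages, by construction. Outside the mitochondrial genes and the 10 highest genes of each cell, the nuclear share of erythrocytes was 3.07%. The other 9 values with this denominator stayed within the limit. The endothelial value with it is not given, so the 3.07% shows no larger or smaller surplus. With the log2 of the mean TPM, nuclear members higher numbered 19 (erythrocytes), 5 (epithelial), 9 (population 3) and 14 (macrophages), mitochondrial members higher 3, 0, 13 and 1; in population 3, 2 nuclear members were lower, and in epithelial cells 0 mitochondrial members. With a pseudocount of 10, nuclear members lower numbered 1 (erythrocytes), 10 (epithelial), 13 (population 3) and 2 (macrophages); higher were 9 in epithelial cells and 0 in population 3, and 0 mitochondrial members in epithelial cells. Between stages the counts higher and lower were 17 and 9 with a pseudocount of 0.1, and 3 and 2 with 10. Rescaled outside the mitochondrial genes, 8 mitochondrial members were higher in population 3. Without cells under 3000 genes 4 nuclear members were higher there. Over all cells of a stage 26 were higher at 20 somites. Among alternatives added after the data were seen, leaving out the pair above 50% gave 4 nuclear and 3 mitochondrial members higher in population 3 and 7 nuclear members lower between stages, and a filter of 50% of cells gave 2 lower. The cause of these shifts was not tested. Shares of all genes are given above for the log2 of the mean TPM and for the 26 over all cells of a stage. For the counts at the other settings they are not given. Those counts thus cannot be read as a change of the members apart from all genes. No paired analysis was possible because each stage is 1 sample. TPM keeps no depth, so how far 0 values limit low genes is unknown.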

Other observations

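Genes around the respiratory chain were compared with the endothelial populations in the same way, from lists chosen with earlier results of these data known. Of all genes, 26.9% were higher and 31.3% lower in erythrocytes, 23.6% and 24.5% in macrophages, and 1.64% and 38.3% in population 3. In erythrocytes 11 of the 12 citric acid cycle genes measured were higher, led by suclg2 (log2 difference 3.73), dlst (3.02) and idh3a (2.81), and fh was lower (-1.25). In macrophages 7 of 12 were higher and none was lower, led by the succinyl-CoA ligase subunits sucla2 (5.07) and suclg1 (4.0). The glycolysis list matched 21 genes, 15 of them only by the symbol without its last letter, so the paralog is uncertain there. Of the 21, 11 passed the filter. In macrophages 6 of the 11 were higher, with pgam1a (5.79), tpi1 (4.30) and gpi (3.72) highest. In erythrocytes 4 were lower, with gpi at -3.82, and 2 higher, ldhb (4.02) and pgam1a (1.84). In population 3, 6 of 12 citric acid cycle genes and 4 of 11 glycolysis genes were lower, and none of either list was higher, which is near the background. In epithelial cells the citric acid cycle gene sucla2 (2.99) was highest and dlst (-1.84) lowest.

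The copper chaperone cox17, which supplies complex IV, was detected in every blood cell of both kinds. It was detected in all 5 erythrocytes, at 156 and 285 TPM at 15-18 somites and at 287 to 1165 TPM at 20 somites. In macrophages it was detected in all 11, at 72.3 and 173 TPM and then at 70.2 to 1336 TPM. Among endothelial cells it was found in 5 of 24 and 3 of 18, at means of 14.4 and 6.08 TPM. The log2 differences of 7.60 and 7.09 were the largest among the genes of these lists. It was also found in 4 of 6 and 2 of 4 epithelial cells and in 1 of 14 and 6 of 14 cells of population 3, there at up to 1615 TPM. Of 20 assembly genes of complexes III and IV that were matched, 11 passed the filter. Of these 11, 8 were higher in erythrocytes, among them uqcc2 (5.98) and sco1 (2.89), and 4 in macrophages, beside 26.9% and 23.6% of all genes. The carrier cycsb, cytochrome c, was higher in both (3.34 and 1.68), as were tfam (4.64 and 1.58), which packages and transcribes mitochondrial DNA, and pprc1 (4.95 and 3.92), a coactivator of the PGC1 family. The transcription factor gabpa was lower in both (-2.29 and -2.17). The porins vdac1 (2.34) and vdac2 (2.19) were higher and vdac3 (-3.14) lower in erythrocytes. Between stages, the list genes past 2-fold were vdac1 (1.06), etfdh (-1.72), tpi1 (-1.95), gapdhs (-1.2) and pprc1 (-1.07), while none of the citric acid cycle genes was.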
